A study of Mus musculus with 2 samples.

Results

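Apoe and the 3 apolipoprotein genes that lie beside it in the mouse genome, Apoc1, Apoc2 and Apoc4, were followed through every cell type of 2 single-cell libraries from atherosclerotic mouse aorta. The 4 genes were chosen by symbol, and all 4 were found among the 32285 genes of both matrices. Both libraries came from mice that lack ApoE on a C57BL/6 background and that were fed a Western diet to produce atherosclerosis. The WT library carried no further deletion according to its labels, so WT here means ApoE-deficient with CD45 intact. The EC-iCD45KO library came from mice in which a tamoxifen-inducible deletion also removed CD45, the leukocyte phosphatase encoded by Ptprc, from endothelial cells (EC). Enzymes freed the cells from the aortas, and magnetic beads against CD31, an endothelial surface protein, enriched them before 10x Genomics sequencing. The Cre driver, the age and number of the mice, the tamoxifen schedule and the allele used to disrupt Apoe were not given in the sources used here.

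Each group had 1 library, so no difference between them had a replicate check and no test was made. The libraries held 39849 (WT) and 30278 (EC-iCD45KO) barcodes, and 340 barcode sequences occurred in both. Counts are UMIs (unique molecular identifiers, each marking a captured RNA molecule). A level is given as CPM, the UMIs of a gene per 1000000 UMIs of the same cells, and differences are log2 ratios of EC-iCD45KO over WT. All intervals are 95% intervals that cover counting error only. They treat UMIs as independent, although many Apoc UMIs came from few cells. Cells were grouped into 13 classes by marker genes that did not include the 4 genes, and a class is called X-like for that reason. EC-like cells were 10.7% of the kept cells in WT and 15.1% in EC-iCD45KO, and macrophage-like cells were 13.8% and 39.5%, although CD31 beads had been used.

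Apolipoproteins coat lipoprotein particles. ApoE is the ligand through which remnant particles bind cell surface receptors such as LRP1, and lesion macrophages are a known source of it. ApoC2 is the cofactor that activates lipoprotein lipase, ApoC1 slows the uptake of remnant particles, and ApoC4 is a minor particle component. The liver is the main source of all 4, and in macrophages the cluster is known to be induced by liver X receptors (LXR), nuclear receptors that sense oxidised cholesterol and bind DNA as partners of RXR.

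The 4 genes fill 27.6 kb of chromosome 7 on GRCm38 (the mm10 build named in the submitters' processing notes), all on the minus strand in GENCODE M21. Apoc2 (ENSMUSG00000002992) spans 19671579 to 19677941 with 5 exons, and Apoc4 (ENSMUSG00000074336) spans 19678083 to 19681479 with 3. Apoc1 (ENSMUSG00000040564) spans 19689481 to 19692660 with 4 exons, and Apoe (ENSMUSG00000002985) spans 19696109 to 19699188 with 4. A readthrough gene, Gm44805 (19671584 to 19681423), overlaps both Apoc2 and Apoc4 and is not among the genes of the matrices, so reads of such a transcript could not be told apart from those of either gene.

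The bases just upstream of the start sites are shown because Apoc2 and Apoc4 were found more often in EC-iCD45KO macrophages with Apoc1 than in those without. RefSeq start sites on GRCm38.p6 were found for 3 of the 4 genes. The sequences run 5′ to 3′ on the minus strand and end just before the start site or, for Apoc4, before the first annotated exon. Windows of 250 bases were searched, and bases inside annotated exons are not printed. Capitals mark the nuclear receptor half-site AGGTCA and the GC box GGGCGG, each searched on both strands.
Apoe, chr7:19699189-19699438: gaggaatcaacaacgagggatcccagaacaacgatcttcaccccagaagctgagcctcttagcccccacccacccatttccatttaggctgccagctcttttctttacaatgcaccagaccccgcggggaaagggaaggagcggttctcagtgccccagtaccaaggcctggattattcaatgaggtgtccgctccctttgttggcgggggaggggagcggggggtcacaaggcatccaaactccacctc
Apoc2, chr7:19677942-19678082: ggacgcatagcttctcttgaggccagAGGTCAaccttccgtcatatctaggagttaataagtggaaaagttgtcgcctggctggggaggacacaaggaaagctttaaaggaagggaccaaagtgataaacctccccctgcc
Apoc4, chr7:19681480-19681710: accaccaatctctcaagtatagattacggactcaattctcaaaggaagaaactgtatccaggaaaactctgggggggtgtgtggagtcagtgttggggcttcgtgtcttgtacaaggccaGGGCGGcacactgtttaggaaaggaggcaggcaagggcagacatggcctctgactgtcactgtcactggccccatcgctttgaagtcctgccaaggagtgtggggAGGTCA

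AGGTCA began 115 bases before the Apoc2 start and 25 bases before the Apoc4 start, and it was not in the Apoe window. Of 32851 windows of the same length in the table, 14.0% held it on either strand. GGGCGG was found before Apoc4, and 32.7% of windows held it. No window of the 3 genes held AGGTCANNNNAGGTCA, the spaced repeat (DR4) recognised by LXR with RXR, which 0.0152% of all windows held, nor the TATA box TATAAA, found on either strand in 12.4%. A match is only a description of these letters, and distal enhancers were not examined.

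Apoe, the ligand gene, was low in every class of both libraries, and less of its RNA than of Apoc RNA was in macrophages. All kept cells together held 899 Apoe UMIs in WT (10.5 CPM) and 1023 in EC-iCD45KO (12.3 CPM). Macrophage-like cells held 27.4% of the WT Apoe UMIs and 46.7% of those in EC-iCD45KO, beside 18.9% and 45.6% of all UMIs. Most Apoe UMIs were alone in their cell, 81.1% in WT and 77.5% in EC-iCD45KO, and no cell held more than 4 and 8. No library with an intact Apoe gene was part of the comparison, and which part of the transcript was read is not given, so these counts do not check the knockout.

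In WT the Apoe level was 29.1 CPM in lymphatic EC-like cells (15.9 to 48.8), 22.0 in EC-like cells (18.9 to 25.5), 17.0 in Schwann-like cells (4 UMIs) and 15.1 in macrophage-like cells (13.3 to 17.2). Neutrophil-like, SMC-like (smooth muscle), fibroblast-like, chondrocyte-like and erythroid-like cells followed at 12.7, 12.0, 10.7, 9.62 and 8.83 CPM. The lowest levels were in T/NK-like, B-like, plasma-like and dendritic-like cells, at 4.91, 4.83, 4.28 and 3.69 CPM. Each class overlapped its neighbour in this order within the counting intervals, but EC-like and macrophage-like cells did not overlap.

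In EC-iCD45KO the order began with lymphatic EC-like cells at 50.6 CPM (33.3 to 73.6), Schwann-like cells at 44.0 (30.7 to 61.3) and EC-like cells at 22.4 (19.6 to 25.6). The lymphatic and Schwann-like levels did not differ beyond counting error, and both lay above the EC-like level, which lay above all the rest except plasma-like and erythroid-like cells, where 2 UMIs each gave 8.89 and 5.75 CPM with wide intervals. Fibroblast-like and macrophage-like cells came next, at 12.9 and 12.6 CPM. SMC-like, B-like, chondrocyte-like, T/NK-like and neutrophil-like cells lay at 7.01, 6.65, 6.42, 4.14 and 4.12 CPM and overlapped in sequence. Dendritic-like cells were lowest, at 2.37 CPM.

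**Figure D1:**
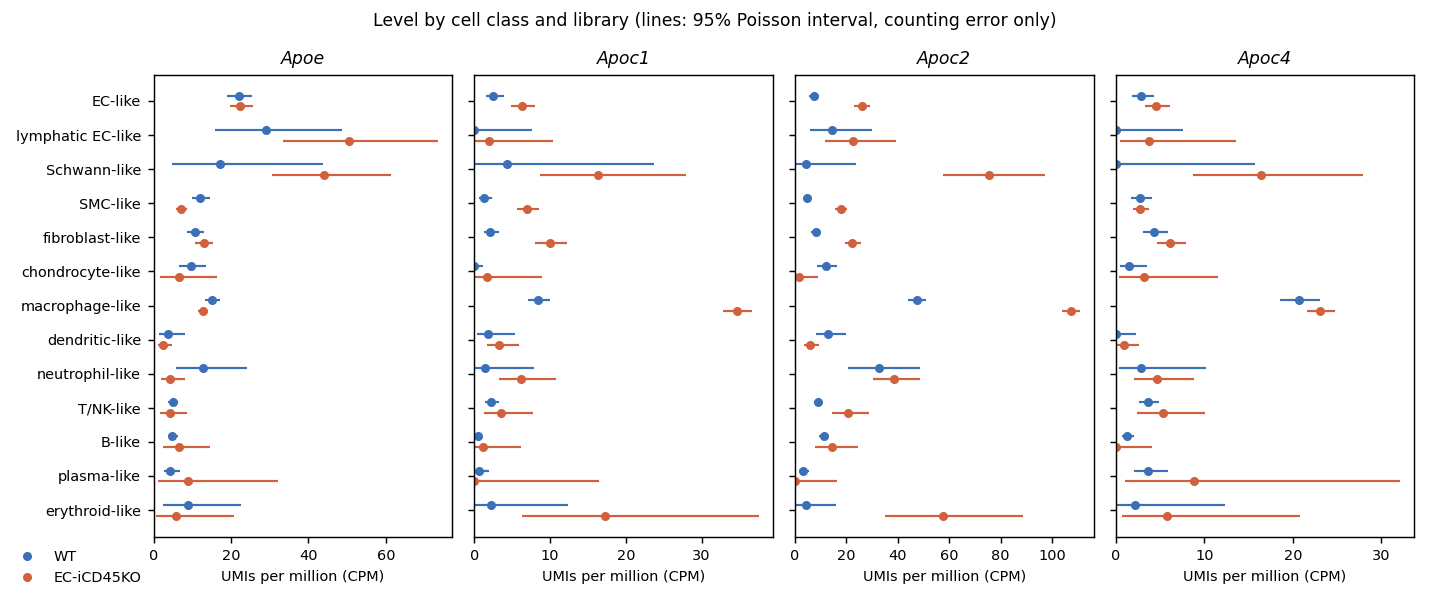
Level of each gene (CPM, horizontal axis) in the 13 cell classes (vertical axis), WT in blue and EC-iCD45KO in orange; points are the level of summed UMIs and lines its 95% Poisson interval. Apoe was highest in lymphatic EC-like cells of both libraries, and macrophage-like cells had the highest level of Apoc2 in both, 47.3 and 107 CPM.

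Lymphocytes are no known major source of ApoE, and B-like cells served as the background for free RNA. This background is a low one. Macrophage markers in B-like cells were at 2.11% (WT) and 2.35% (EC-iCD45KO) of their macrophage-like level. In T/NK-like cells they were at 14.7% and 24.7%, and in EC-like cells at 15.6% and 20.3%. Apoe in T/NK-like cells differed from B-like cells by 0.02 in WT on the log2 scale (-0.52 to 0.56) and by -0.68 in EC-iCD45KO (-2.48 to 1.17). After thinning each cell to 1000 UMIs, 0.537% of WT B-like cells held an Apoe UMI (0.360% to 0.771%, median depth 1997 UMIs), against 2.45% of EC-like cells (1.90% to 3.12%, median depth 1384). Macrophage-like cells lay between, at 1.44% (1.10% to 1.87%, median depth 2452). In EC-iCD45KO the shares were 0.323% of B-like (0.00817% to 1.78%, median depth 2548), 2.46% of EC-like (1.90% to 3.13%, median depth 1354) and 1.30% of macrophage-like cells (1.05% to 1.59%, median depth 1788). Without thinning the EC-like shares were 4.37% and 4.98%, and the B-like shares 1.08% and 1.79%. On the log2 scale of CPM, Apoe in EC-like cells exceeded B-like cells by 2.19 in WT (1.77 to 2.62) and by 1.75 in EC-iCD45KO (0.61 to 3.22). Macrophage-like cells exceeded B-like cells by 1.65 in WT (1.25 to 2.07), whereas in EC-iCD45KO the difference of 0.93 was within counting error (-0.21 to 2.38), the 336 B-like cells there holding only 6 Apoe UMIs. SMC-like cells were above B-like cells in WT, by 1.32 (0.85 to 1.79), and not detectably so in EC-iCD45KO, at 0.08 (-1.10 to 1.56).

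The EC-like class holds 3 clusters, and Apoe differed among them. It was highest in the cluster led by Gpihbp1, the capillary anchor of lipoprotein lipase, and Ccdc85a, at 34.2 CPM in WT (26.1 to 44.2) and 43.3 in EC-iCD45KO (35.8 to 52.0). The cluster led by Sfrp1 and Edn1, which encodes endothelin, had 23.5 and 31.2 CPM. The cluster led by Ackr1 and Selp, genes of venous endothelium, had 16.6 and 11.2 CPM. The Gpihbp1 cluster thus stood above the Ackr1 cluster in both libraries with intervals that did not overlap, although the 3 Apoc genes were at no more than 2.24 CPM in it. Its thinned share of cells with an Apoe UMI was 4.49% in WT and 5.50% in EC-iCD45KO.

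Between the libraries Apoe in EC-like cells was level, with a log2 ratio of 0.03 (-0.26 to 0.32). This sum covers clusters on either side of 0. The ratio was -0.57 in the Ackr1 cluster (-1.06 to -0.07), 0.41 in the Sfrp1 cluster (-0.22 to 1.03) and 0.34 in the Gpihbp1 cluster (-0.12 to 0.82). The cells were divided differently too, with 2419, 860 and 565 cells of these clusters in WT and 2815, 450 and 668 in EC-iCD45KO.

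SMC-like cells held less Apoe in EC-iCD45KO, 7.01 CPM against 12.0, a log2 ratio of -0.78 (-1.20 to -0.37). Both of their large clusters lay in this direction. The cluster of deep cells led by Acta2 and Vcam1 went from 13.5 CPM in WT to 7.69 in EC-iCD45KO (-0.81, -1.32 to -0.30), and the one led by Cnn1 and Rgs5 from 9.62 to 6.41 (-0.59, -1.39 to 0.23). Fibroblast-like cells as a class showed no difference beyond counting error at 10.7 and 12.9 CPM (0.27, -0.14 to 0.68). Different clusters made up most of this class, with 2858, 1865 and 552 cells of the clusters led by C7 and Dpep1, by Slurp1 and Timp1, and by Saa3 and Sfrp4 in WT and 1184, 1006 and 1865 in EC-iCD45KO. Their Apoe ratios were 0.88 (0.02 to 1.73), -0.01 (-0.88 to 0.82) and -0.05 (-0.69 to 0.63). Schwann-like cells showed no difference beyond counting error at 17.0 and 44.0 CPM, where WT held 4 UMIs (1.37, -0.11 to 3.32).

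Apoe in macrophage-like cells was slightly lower in EC-iCD45KO, at 12.6 against 15.1 CPM (-0.26, -0.49 to -0.03), and 1 of the 4 macrophage-like clusters carried this. Resident-like macrophages, led by the chemokine gene Ccl8 and the mannose receptor gene Mrc1, held 28.7 CPM in WT (23.3 to 34.97) and 16.2 in EC-iCD45KO (13.9 to 18.7), a log2 ratio of -0.83 (-1.19 to -0.46). Foamy Trem2 macrophages, led by Gpnmb, Mmp12 and Trem2, held 13.6 and 13.3 CPM (-0.03, -0.40 to 0.35). Monocyte-derived macrophages, led by Chil3, held 6.65 and 6.497 CPM (-0.03, -0.80 to 0.78). The shallow cluster of no subtype, led by Lyz1 and Aif1, held 12.2 and 12.0 CPM (-0.03, -0.63 to 0.59).

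**Figure D2:**
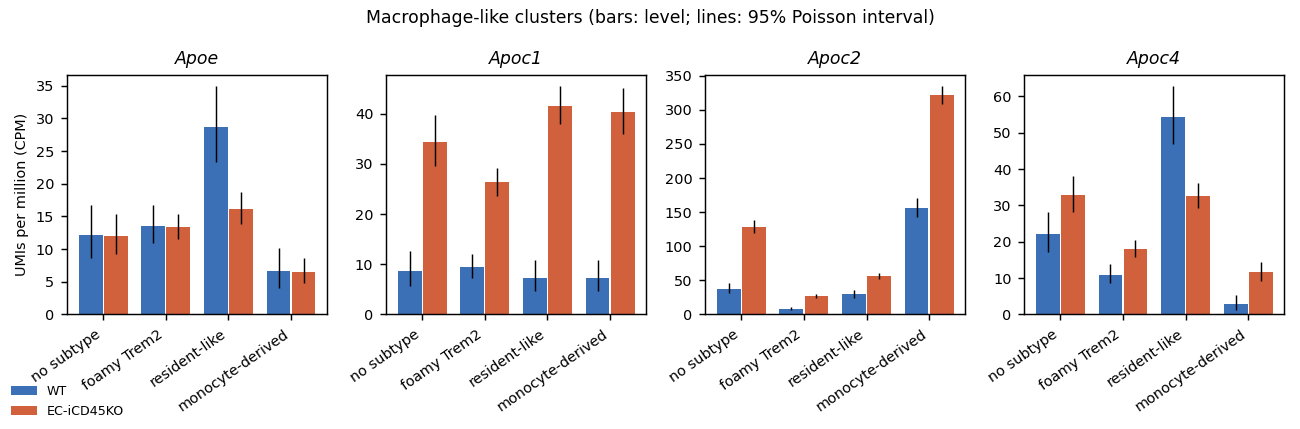
Level of each gene (CPM, vertical axis from 0) in the 4 macrophage-like clusters of WT (blue) and EC-iCD45KO (orange), with 95% Poisson intervals as lines. Apoe and Apoc4 peaked in resident-like macrophages of WT, at 28.7 and 54.5 CPM, and Apoc2 in monocyte-derived macrophages of both libraries, at 156 and 322 CPM.

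The 3 Apoc genes had another distribution. Macrophage-like cells held 56.1% of the Apoc1 UMIs in WT and 81.3% in EC-iCD45KO, 57.05% and 80.4% of the Apoc2 UMIs, and 62.9% and 82.7% of the Apoc4 UMIs. Macrophage-like cells were the class with the most Apoc2 and Apoc1 CPM in both libraries. For Apoc1 the erythroid-like and Schwann-like intervals of WT, from 1 UMI each, reached above the macrophage-like level. So did the erythroid-like interval of EC-iCD45KO, at 17.3 CPM from 6 UMIs. For Apoc2 the neutrophil-like interval of WT, at 32.5 CPM from 23 UMIs, overlapped that of macrophage-like cells.

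Apoc2, the lipoprotein lipase cofactor gene, was at 47.3 CPM in WT macrophage-like cells (44.1 to 50.8, 769 UMIs) and at 107 CPM in EC-iCD45KO (104 to 111, 4057 UMIs). The log2 ratio was 1.18 (1.07 to 1.29). Monocyte-derived macrophages were the main site in both libraries, with 156 CPM in WT (143 to 171) and 322 in EC-iCD45KO (309 to 335), a ratio of 1.04 (0.90 to 1.19). The cluster of no subtype went from 37.9 to 129 CPM (1.76, 1.48 to 2.06), foamy macrophages from 8.54 to 27.1 (1.66, 1.26 to 2.10) and resident-like macrophages from 29.9 to 56.5 (0.92, 0.62 to 1.24). Apoc2 was therefore higher in EC-iCD45KO in each of the 4 clusters, and the monocyte-derived cluster led in each library.

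A small set of cells carried much of the Apoc2 RNA. In WT 61 cells with 5 or more Apoc2 UMIs (a level chosen after the data were seen) held 45.2% of them, and in EC-iCD45KO 261 cells held 61.4%. Of these, 36 and 151 were monocyte-derived macrophages, which is 3.99% and 9.99% of that cluster. The fullest cell held 30 UMIs in WT, a chondrocyte-like cell, and 61 in EC-iCD45KO, a monocyte-derived macrophage. Without such cells the macrophage-like ratio was 0.70, and it was 0.76 when each cell with a UMI counted once, both under a 2-fold difference. Cells with a UMI were 8.13% of thinned monocyte-derived macrophages in WT and 17.0% in EC-iCD45KO.

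**Figure D3:**
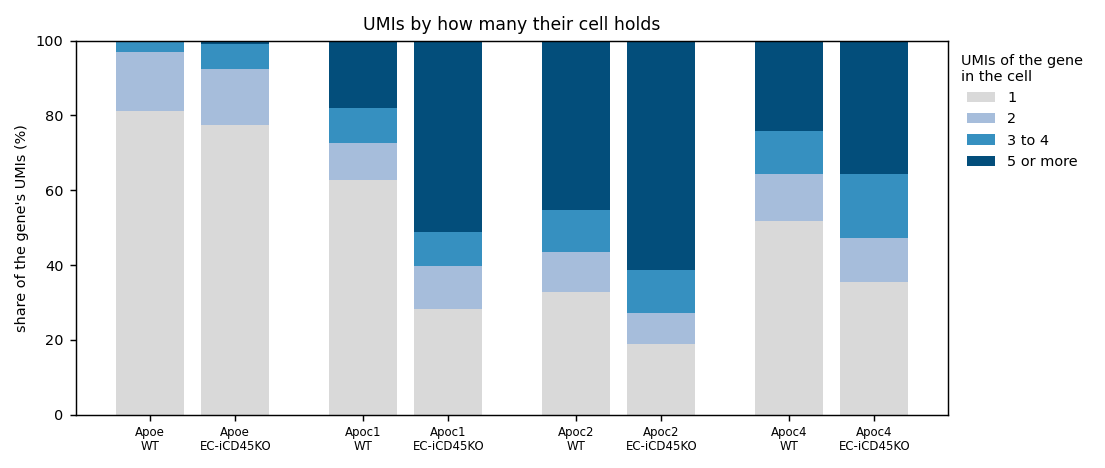
Share of each gene's UMIs (%, vertical axis) by the number of UMIs of that gene in the same cell (shading), for each gene and library (bars). Apoe UMIs were mostly alone in their cell, whereas cells with 5 or more held 51.2% of Apoc1 and 61.4% of Apoc2 UMIs in EC-iCD45KO.

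Apoc1, whose protein slows remnant uptake, was at 8.44 CPM in WT macrophage-like cells (137 UMIs) and at 34.7 in EC-iCD45KO (1310 UMIs), a log2 ratio of 2.04 (1.78 to 2.30). Unlike Apoc2 it showed no preferred macrophage cluster in WT, where the 4 clusters lay between 7.29 and 9.45 CPM. In EC-iCD45KO they lay between 26.3 CPM in foamy and 41.5 in resident-like macrophages. The ratios were 1.99 in the cluster of no subtype (1.40 to 2.63), 1.48 in foamy (1.08 to 1.89), 2.51 in resident-like (1.92 to 3.15) and 2.47 in monocyte-derived macrophages (1.86 to 3.15).

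The Apoc1 difference also rested in part on few cells. In EC-iCD45KO 65 cells with 5 or more Apoc1 UMIs held 51.2% of them, and 1 foamy macrophage alone held 76. In WT 5 such cells held 18.0%. Without them the macrophage-like ratio was 1.14, and it was 1.195 with each cell counted once. In resident-like macrophages the ratio of 2.51 became 0.62 without 23 such cells, no longer beyond counting error (-0.0055 to 1.31). In monocyte-derived macrophages 2.47 became 1.93. Of the thinned macrophage-like cells, 0.735% of those from WT (0.493% to 1.05%) held an Apoc1 UMI and 2.04% of those from EC-iCD45KO (1.72% to 2.40%), against 0.0185% and 0.323% of B-like cells. B-like cells are a low background here too. Apoc1 CPM in T/NK-like cells exceeded theirs by a log2 ratio of 2.31 in WT (0.99 to 3.88) and 1.68 in EC-iCD45KO (-1.36 to 7.20).

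Apoc4 differed little in macrophage-like cells as a whole, at 20.7 CPM in WT and 23.1 in EC-iCD45KO (0.16, -0.02 to 0.35), and its clusters lay on either side. Resident-like macrophages held 54.5 CPM in WT (46.9 to 62.9) and 32.5 in EC-iCD45KO (29.3 to 36.0), a ratio of -0.74 (-1.002 to -0.48). Monocyte-derived macrophages held 2.85 and 11.6 CPM (2.03, 1.04 to 3.21), the cluster of no subtype 22.2 and 32.8 (0.57, 0.15 to 0.99), and foamy macrophages 10.98 and 18.1 (0.72, 0.34 to 1.12). The foamy difference was gone without the 3 and 13 cells that held 5 or more Apoc4 UMIs (-0.03), whereas the resident-like ratio was then -0.74 again. Apoe and Apoc4 were thus both highest in resident-like macrophages of WT and both lower there in EC-iCD45KO, while Apoc2 in the same cluster was higher, and Apoc1 was so with its 23 richest cells included.

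Genes entered the next counts if they averaged 5 CPM or more over both libraries. Of 9653 such genes in macrophage-like cells, 0.756% were 2-fold or more higher in EC-iCD45KO and 2.57% were 2-fold or more lower. All 4 genes passed this minimum, and 2 of them (Apoc1 and Apoc2) were 2-fold or more higher and 0 lower. The median log2 ratio of all these genes was -0.06. In monocyte-derived macrophages 3 of 4 were 2-fold or more higher, with 1.60% of 9364 genes so and 4.68% lower. Foamy macrophages had 2 of 4 (1.26% of 9258 genes higher, 1.77% lower), the cluster of no subtype 2 of 4 (2.38% of 9994 higher, 4.84% lower) and resident-like macrophages 1 of 4 (1.25% of 9623 higher, 2.36% lower). Without cells of 5 or more UMIs the 2-fold difference was lost for Apoc2 in monocyte-derived (0.51, 0.24 to 0.78) and foamy macrophages (0.99) and for Apoc1 in resident-like macrophages.

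The genes that flank the cluster on chromosome 7 showed no 2-fold difference in macrophage-like cells. Of 10 neighbours on a fixed list, 7 passed the minimum in macrophage-like cells, 0 of them differed by 2-fold, and their median log2 ratio was -0.07. In the cluster of no subtype 1 of 8 was 2-fold lower, beside 4.84% of all genes. Zfp296 was the 1 of 9 that was 2-fold lower in EC-like cells (9.74 CPM in WT, 4.07 in EC-iCD45KO) and in fibroblast-like cells (9.31 and 1.75). Of all genes 3.53% and 4.88% were so there. Tomm40, a subunit of the mitochondrial import pore and the nearest gene to Apoe, was at 37.3 CPM in WT and 33.6 in EC-iCD45KO (-0.15, -0.29 to -0.01). Clptm1, next to Apoc2, was at 53.0 and 50.5 CPM (-0.07, -0.19 to 0.05). Relb, an NF-kappaB subunit gene further along, was at 80.5 and 68.5 CPM (-0.23, -0.33 to -0.14).

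Genes of the LXR pathway in macrophage-like cells showed smaller differences. Of 15 listed, 14 passed the minimum, 9 were higher and 5 lower in EC-iCD45KO, and 0 by 2-fold, with a median of 0.19 beside -0.06 for all genes. The cholesterol exporter genes Abca1 and Abcg1 went from 294 to 395 CPM (0.43, 0.38 to 0.47) and from 195 to 225 (0.21, 0.15 to 0.27). Pltp, the phospholipid transfer protein gene, went from 750 to 912 CPM (0.28, 0.25 to 0.31). Nr1h3, which encodes the receptor LXR alpha, was lower, at 21.1 against 25.9 CPM (-0.29, -0.46 to -0.12). The desaturase genes Scd1 and Scd2 differed in direction, with ratios of -0.69 (-0.85 to -0.54) and 0.70 (0.52 to 0.88).

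Of 14 lysosome and foam cell genes, 12 were higher and 2 lower, 0 by 2-fold, with a median of 0.26. Msr1, a scavenger receptor gene, went from 58.1 to 89.0 CPM (0.62, 0.51 to 0.72) and Plin2, which coats lipid droplets, from 485 to 677 (0.48, 0.44 to 0.52). Trem2, the lipid receptor that marks foamy macrophages, was lower, at 767 against 925 CPM (-0.27, -0.30 to -0.24). Of 11 receptor and binding protein genes of ApoE, 8 passed the minimum, with 5 higher, 3 lower and 0 by 2-fold. Lrp1 was at 188 and 227 CPM (0.28, 0.22 to 0.34) and the sorting receptor gene Sorl1 at 78.5 and 59.4 (-0.40, -0.50 to -0.30). In the lipoprotein lipase list 1 of 5 measured genes was higher and 4 lower. Lpl itself, the enzyme that ApoC2 activates, was at 173 CPM in WT and 141 in EC-iCD45KO (-0.30, -0.37 to -0.24). Of 15 other apolipoprotein and lipoprotein genes, 5 passed the minimum, with 3 higher, 2 lower and 0 by 2-fold.

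Apoc2 and Apoc4 were found more often in macrophages of EC-iCD45KO with Apoc1 than in those without, whereas the share of cells with Apoe differed by less than counting error between cells with and without Apoc1 or Apoc2. Cells were thinned to 2000 UMIs for this count. In EC-iCD45KO 37.9% of 169 Apoc1-positive macrophage-like cells also held Apoc2 (30.5% to 45.6%), against 7.77% of the 4776 without Apoc1. In WT they were 9 of 30 cells (14.7% to 49.4%) and 3.79% of 2746. Within the clusters of EC-iCD45KO the shares with Apoc2 were 69.0% against 19.4% in monocyte-derived, 22.8% against 4.49% in resident-like and 14.3% against 2.49% in foamy macrophages, with intervals that did not overlap, whereas those of the cluster of no subtype overlapped. Apoc4 was in 15.4% of Apoc1-positive cells of EC-iCD45KO (10.3% to 21.7%) and in 2.49% of the others, although in monocyte-derived macrophages the intervals overlapped, at 3.45% (0.420% to 11.9%) and 1.67%. In WT Apoc4 was in 13.3% of Apoc1-positive cells, 4 of 30 (3.76% to 30.7%), and in 2.66% of the others (2.09% to 3.33%). For Apoc4 in cells with and without Apoc2 the shares were 6.67% (4.51% to 9.43%) and 2.57% in EC-iCD45KO, whereas in WT the intervals overlapped, at 5.31% (1.97% to 11.2%) and 2.67% (2.09% to 3.35%). Among the clusters of EC-iCD45KO they were apart only in monocyte-derived macrophages, at 5.22% (2.81% to 8.76%) and 0.788% (0.318% to 1.62%). Apoe was in 2.96% of cells with Apoc1 and 2.53% of cells without it in EC-iCD45KO, and in WT in 3.33% (1 of 30 cells) and 2.84%. With Apoc2 the Apoe shares were 1.38% of cells with it (0.508% to 2.98%) and 2.66% of cells without it in EC-iCD45KO.

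Over all macrophage-like cells of WT, Apoc4 was in 10.1% of 79 Apoe-positive cells (4.47% to 19.0%) and in 2.56% of the others (2.00% to 3.23%). This pools clusters of different levels, and within each of the 4 clusters the intervals overlapped. In resident-like macrophages the shares were 10.5% (2.94% to 24.8%) and 6.34% (4.57% to 8.53%). In foamy macrophages the overlap was bare, at 11.5% (2.45% to 30.2%) and 1.59% (0.930% to 2.54%). In EC-iCD45KO the shares over all macrophage-like cells were 5.56% of 126 cells (2.26% to 11.1%) and 2.86%. Of 62 macrophage-like cells of EC-iCD45KO with 5 or more Apoc1 UMIs, 55 held no Apoe UMI, 30 no Apoc2 and 29 no Apoc4. They held a mean of 12.95 Apoc1 and 0.161 Apoe UMIs at a median depth of 7842 UMIs. Apoe was sparse in macrophage-like cells of any kind, and these counts do not show it to be lower in the cells rich in Apoc1.

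In 2 of the 4 macrophage-like clusters of EC-iCD45KO, most LXR genes were higher in cells with an Apoc1 UMI than in the others. Most foam cell genes were so in all 4. In the cluster of no subtype, though, these were 9 of 14 beside 51.9% of all genes, and 0 by 2-fold. In resident-like macrophages of EC-iCD45KO, 109 cells with an Apoc1 UMI were set beside 2068 without. Of the 11 LXR pathway genes at 20 CPM or more, 9 were higher in the Apoc1 cells, 3 of them by 2-fold or more, and the median was 0.50. Of all 5733 genes at this level 51.6% were higher, 0.576% by 2-fold or more, with a median of 0.01. Scd2 was at 52.5 against 17.3 CPM (1.60) and Nr1h3 was higher by 1.32. Lpl was lower in the Apoc1 cells, by a log2 ratio of -1.29. Of 14 lysosome and foam cell genes 12 were higher, led by the fatty acid binding protein gene Fabp5 at 1686 against 296 CPM (2.51) and by Gpnmb (2.44). The Apoc1 cells were deeper, with a median of 6451 against 4924 UMIs, and the part of depth was not tested.

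Foamy macrophages of EC-iCD45KO gave a like picture, with 12 of 13 LXR genes and 14 of 14 foam cell genes higher in 102 cells with an Apoc1 UMI than in 2834 without, at median depths of 7226 and 2276 UMIs. The LXR median was 0.32 and the foam cell median 0.46, beside -0.06 for all 5531 genes, of which 42.3% were higher and 0.796% by 2-fold or more. Of the listed genes 2 of each list were 2-fold or more higher, and Lpl was at 0.39. Split by Apoc1, monocyte-derived macrophages did not share it for the LXR list, where 5 of 11 genes were higher and the median was -0.06, although Pltp was at 736 against 416 CPM, and Lpl was at -1.59. There 10 of 14 foam cell genes were higher, with Gpnmb at 187 against 92.8 CPM. Of all genes there 48.8% were higher, 0.387% by 2-fold or more. In the cluster of no subtype 6 of 12 LXR genes (median 0.12) and 9 of 14 foam cell genes were higher, beside 51.9% of all genes (2.22% by 2-fold or more). Splits by Apoc2 or Apoc4 gave most LXR genes higher in all 4 clusters. For no subtype, foamy, resident-like and monocyte-derived cells these were 8 of 12, 9 of 12, 8 of 10 and 7 of 11 with Apoc2. With Apoc4 they were 8 of 12, 10 of 13, 9 of 10 and 8 of 11. Medians were 0.07 to 0.28 and 0.10 to 0.42, beside -0.06 to 0.03 for all genes.

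In EC-like cells Apoe lay far above the relative level of macrophage markers, and the Apoc genes lay closer to it. In EC-like cells the 11 macrophage markers stood at a median of 15.6% of their macrophage-like level in WT (14.8% to 21.7%) and 20.3% in EC-iCD45KO (18.7% to 23.1%). None of the markers was at 0. On the same scale Apoc1 was at 29.95%, above all the markers, and 18.0%, Apoc2 at 15.2% and 24.2%, and Apoc4 at 14.0% and 19.7%, whereas Apoe was at 145% and 177%. In lymphatic EC-like cells Apoe was at 192% and 400% of the macrophage-like level, beside macrophage markers at 10.2% and 26.5%. In Schwann-like cells of EC-iCD45KO the markers were at 50.6%, Apoc1 at 47.2%, Apoc2 at 70.3% and Apoc4 at 70.7%, and Apoe at 348%. B-like cells had markers at 2.11% and 2.35%, with Apoe at 31.9% and 52.6%. Apoc2 stood above the range of the markers in B-like cells of both libraries, at 23.8% in WT, where 7 cells with 5 or more UMIs held 53.7% of it, and at 13.4% in EC-iCD45KO. It was also above them, by little, in T/NK-like cells of WT (19.3%, markers up to 16.8%) and in EC-like cells of EC-iCD45KO. The same held in neutrophil-like cells of WT, at 68.7% beside markers at 22.7%, where 2 cells held a mean of 5.5 of the 23 UMIs each, and in chondrocyte-like cells of WT, at 25.4% beside 8.04%, where 1 cell held 30 of the 40 UMIs, and in the Schwann-like cells of EC-iCD45KO.

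**Figure D4:**
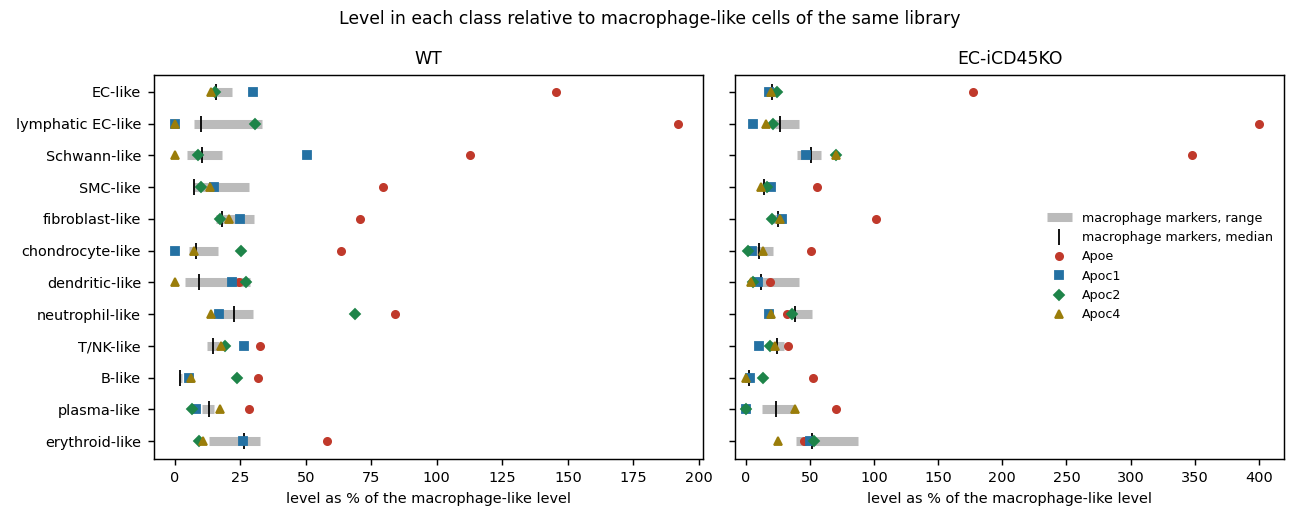
Level of each gene in 12 classes as a percentage of its level in macrophage-like cells of the same library (horizontal axis), with the range (grey bar) and median (black tick) of 11 macrophage markers on the same scale; WT on the left, EC-iCD45KO on the right. In EC-like cells Apoe stood at 145% and 177%, outside the grey bars, and Apoc2 and Apoc4 near them.

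Apoc1 and Apoc2 were also higher in EC-iCD45KO in EC-like, SMC-like and fibroblast-like cells, where the summed level of the 11 macrophage markers was higher as well. EC-like cells held Apoc2 at 7.22 CPM in WT and 26.0 in EC-iCD45KO (1.85, 1.44 to 2.28), beside macrophage markers at a summed 3934 and 6159 CPM. Most of this lay in the Ackr1 cluster, with 39 UMIs in WT and 239 in EC-iCD45KO (2.19, 1.70 to 2.72). The Sfrp1 cluster held 19 and 17 UMIs in 860 and 450 cells, and the Gpihbp1 cluster 2 and 6 in 565 and 668 cells. SMC-like cells held 4.75 and 17.9 CPM (1.91, 1.43 to 2.42), beside markers at 2026 and 4124. Most of this lay in the Cnn1 and Rgs5 cluster, with 24 and 201 UMIs (2.12, 1.51 to 2.80). The Acta2 and Vcam1 cluster held 17 and 39 UMIs in 638 and 651 cells. Fibroblast-like cells held 8.15 and 22.3 CPM (1.45, 1.05 to 1.87), beside markers at 4660 and 7013. By cluster this was 2.78 in the C7 and Dpep1, 0.28 (-0.60 to 1.12) in the Slurp1 and Timp1 and 2.51 (1.23 to 4.17) in the Saa3 and Sfrp4 cluster, whose shares of the class differed between the libraries as given above. Apoc1 ratios were 1.31 in EC-like (0.58 to 2.09), 2.44 in SMC-like (1.54 to 3.49) and 2.25 in fibroblast-like cells (1.51 to 3.06). Over the alternatives run they ranged from 1.10 to 1.84, from 1.16 to 3.29 and from 1.45 to 2.95. Counts in the other classes were smaller, and many of their values turned on a few cells. Apoc2 was higher in T/NK-like cells (1.18, 0.59 to 1.75), but by 0.28 (-0.56 to 1.03) without cells of 5 or more UMIs. It was higher in Schwann-like cells, with 60 UMIs against 1 (4.15, 1.61 to 9.47), beside markers at 2263 CPM in WT and 14035 in EC-iCD45KO. Erythroid-like cells held 20 UMIs against 2 (3.70, 1.66 to 6.85), beside markers at 6595 and 16107 CPM. Apoc2 was lower in dendritic-like cells (-1.12, -2.08 to -0.17) and, with 1 UMI against 40, in chondrocyte-like cells (-2.90, -8.24 to -0.34), and neither was lower beyond counting error without cells of 5 or more UMIs. Neutrophil-like (0.25, -0.44 to 0.99) and B-like cells (0.36, -0.59 to 1.18) showed no difference beyond counting error, but without cells of 5 or more UMIs both were higher, by 0.91 (0.0020 to 1.94) and 1.46 (0.49 to 2.33). Apoc1 showed no difference beyond counting error in T/NK-like cells (0.66, -0.91 to 1.98). How much of this is RNA of macrophages in the same droplets was not tested.

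Of the genes that reached this minimum in EC-like cells, 1.43% were 2-fold or more higher and 3.53% lower in EC-iCD45KO. Apoe and Apoc2 passed this minimum there, and Apoc2 was 2-fold higher. In SMC-like cells (1.75% higher, 2.97% lower) the same pair passed, with Apoc2 2-fold higher. In fibroblast-like cells (1.73% higher, 4.88% lower) all 4 passed, with Apoc1 and Apoc2 2-fold higher. Apoc4 showed no difference beyond counting error in EC-like (0.66, -0.08 to 1.44), SMC-like (-0.03, -0.81 to 0.78) or fibroblast-like cells (0.51, -0.12 to 1.15).

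Liver genes were at low levels in macrophage-like and EC-like cells and stood higher in fibroblast-like cells. Fat genes were higher in EC-iCD45KO than in WT in each class where they were summed. The 8 hepatocyte markers summed to 0.616 CPM in WT and 1.83 CPM in EC-iCD45KO macrophage-like cells, with Alb, Serpina1a, Fgb and Tat at 0 in WT and Serpina1a and Tat at 0 in EC-iCD45KO. The 6 adipocyte markers summed to 2.52 and 7.12 CPM there, and the 8 kidney tubule markers to 29.3 and 11.2 CPM. Among the macrophage-like clusters the kidney markers were highest in foamy macrophages of WT, at 64.2 CPM, led by Umod. In EC-like cells the hepatocyte markers summed to 1.92 and 3.97 CPM, the adipocyte markers to 5.17 and 12.1, and the kidney markers to 11.9 and 18.4. The adipocyte markers summed to 5.33 and 10.7 CPM in SMC-like cells and to 5.47 and 12.7 in fibroblast-like cells. In fibroblast-like cells the hepatocyte markers summed to 22.8 and 37.0 CPM, led by Ahsg, and the kidney markers to 29.3 and 53.5, led by Aqp2, which is above the Apoe level of the same cells. Their part in the Apoe and Apoc levels was not tested.

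The order of the 13 classes by Apoe level was similar in the 2 libraries (Pearson r of log2(CPM + 1) 0.78, Spearman 0.70), as it was for Apoc1 (0.83 and 0.78). It was less so for Apoc4 (0.46 and 0.54) and Apoc2 (0.33 and 0.15). The genes whose level over the 13 classes was most like that of Apoe, by the lower of the Pearson r of each library among 5945 genes, were Plscr4 (0.83 in both), Dync1i2 (0.86 and 0.81), Git1 (0.80 and 0.87), Stard13 (0.80 and 0.82), Tspan18 (0.79 and 0.80), Sbf2 (0.78 and 0.83), Fam189a2 (0.81 and 0.78) and Snx13 (0.77 and 0.91). All 8 peaked in lymphatic EC-like or Schwann-like cells. Apoe itself correlated with Apoc1 at 0.13 and 0.18 over the same classes.

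The genes most like Apoc1 were Mfsd1, Aif1, Extl3, Rnpep, Adap2, Atp13a2, Hpgds and Mpeg1, with a lower r of 0.72 to 0.78, and each peaked in macrophage-like cells. These coefficients rest on 13 classes that share libraries and differ in depth, and they are descriptions only.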

How the data were processed

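Single cells of 2 mouse aorta libraries were analysed, 1 per group, so samples were grouped by their labels and no test or p-value was computed. The authors deposited whole-number UMI counts per gene and barcode made with Cell Ranger 7.1.0 on mm10, per the submitters' processing notes. The annotation, the counting of introns and the pooling of animals are not given in the sources used here. Of 32285 gene identifiers, 32235 matched GENCODE M21, the source of positions. Upstream sequences came from RefSeq (GRCm38.p6) for 3 of the 4 genes.

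Barcodes were kept from 300 genes upward and up to 10% mitochondrial UMIs (39503 in WT, 28960 in EC-iCD45KO). Scrublet marked 5 and 0 doublets by its own threshold, so the top 10% of scores were removed instead, which was decided with the data in view, leaving 35782 and 26120 cells. Cells were clustered together (scanpy 1.11.5, 2000 variable genes, 30 principal components, 20 neighbours, leidenalg 0.10.2 at resolution 1) without the 4 genes and Ptprc, giving 31 clusters. Clusters were named from marker lists of 18 classes and 5 macrophage subtypes, needing a mean log2 excess of at least 1, a lead of 0.75 and 3 detected markers. Names rebuilt in this way may differ from the study's. Unnamed cells were 8.60% and 1.58% (3079 and 414 cells). Class sizes depended on the clustering. At Leiden resolution 2 unnamed cells numbered 9582 in WT and 5403 in EC-iCD45KO, and macrophage-like cells 3251 and 7349 in place of 4941 and 10321.

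UMIs were summed by class and library. Counts carry Poisson, shares Clopper-Pearson and ratios conditional binomial intervals (95%). The libraries held 92058043 and 88967918 UMIs with medians of 1548 and 1405 per barcode, and median mitochondrial shares of 1.90% and 3.03%. Shares of cells were taken after thinning to 1000 UMIs, which left out 1195 and 1329 EC-like, 993 and 3299 macrophage-like, and 456 and 26 B-like cells. Counts of 2-fold differences took genes averaging 5 CPM or more. The 4 genes and the lists were chosen with earlier results of these data known. All 4 genes are named, and list genes with at least 20 CPM in a library of the class may be named. The 8 genes most like Apoe or Apoc1 came from genes with at least 50 CPM in a class of both libraries. On simulated counts of 9579 genes for the macrophage-like comparison, the intervals held the true ratio for 95.4%, and the sign was recovered for 200 of 200 changed genes. These counts were drawn as independent UMIs, as the intervals assume. They do not check the intervals of genes such as Apoc1 and Apoc2, where many UMIs came from few cells. Other filters, doublet handling, resolution, scalings, minimum and thinning were tried. edgeR 4.0.16 in R 4.3.3 gave the TMM factors of 1 alternative, and scipy 1.17.1 with numpy 2.4.6, pandas 2.3.3 and matplotlib 3.10.9 in Python 3.11.15 did the rest.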

Additional observations from a re-analysis of the deposited data

Results flagged for a closer look

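Clusters lay on opposite sides of 0 in the same comparison of EC-iCD45KO with WT, beyond counting error, for 3 of the genes. With 1 library per group the difference between clusters was not tested. For Apoe the log2 ratio was -1.63 in neutrophil-like cells (-3.20 to -0.08, 12.7 CPM in WT and 4.12 in EC-iCD45KO, from 9 and 8 UMIs; -1.26, -2.92 to 0.43 with each cell counted once) and 0.88 in the fibroblast-like cluster led by C7 and Dpep1 (0.02 to 1.73, 8.62 and 15.8 CPM). Among clusters with more than 3 UMIs of the gene in each library, the interval lay below 0 in 4 and above 0 in 1.

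For Apoc2 the ratio was -1.12 in dendritic-like cells (-2.08 to -0.17), where 1 WT cell held 18 of 21 UMIs, and 1.67 (-0.08 to 4.07) without cells of 5 or more. It was 2.78 in the same C7 and Dpep1 cluster (2.20 to 3.38, 10.5 and 71.7 CPM), among 10 such clusters whose interval lay above 0. With fewer UMIs in 1 library, the interval lay above 0 in Schwann-like and erythroid-like cells too, and below 0 in chondrocyte-like cells.

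For Apoc4 the ratio was -0.74 in resident-like macrophages (-1.002 to -0.48) and 2.95 in the EC-like cluster led by Sfrp1 and Edn1 (1.37 to 4.96, 1.92 and 14.9 CPM). In the latter 1 cell held 10 of the 20 UMIs of EC-iCD45KO, and the ratio without it was 1.97.

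Cells left without a class name entered the totals over all cells but no comparison by class. They held Apoc2 at 24.2 CPM in EC-iCD45KO against 5.72 in WT (2.08, 1.46 to 2.71), and the ratio was 1.24 (0.47 to 1.97) without cells of 5 or more. These are different clusters in the 2 libraries, since 2039 and 311 of the WT cells were in clusters with 0 cells of EC-iCD45KO. Cycling cells led by Hist1h1b and Mki67 held 25.5 and 5.22 CPM. Of the 46 Apoc2 UMIs in unnamed cells of EC-iCD45KO, 43 were in this cluster, and 2 cells held 48.8% of those.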

How the results depend on the processing

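No paired analysis was possible because there was 1 library a group. Of the 7 log2 ratios that answer a comparison, none changed direction in macrophage-like or SMC-like cells under the alternatives run, whereas the EC-like Apoe ratio, main value 0.03, ranged from -0.05 to 0.06. The macrophage-like Apoc1 ratio of 2.04 was 1.75 as a mean of single-cell CPM, 1.14 without cells of 5 or more UMIs of the gene and 1.195 with each cell counted once. The macrophage-like Apoc2 ratio of 1.18 was 1.07 at Leiden resolution 2, 0.93 as a mean of single-cell CPM, 0.70 without cells of 5 or more UMIs, 0.76 with each cell counted once and 1.07 without the cluster of no subtype. The last 3 kinds of alternative and equal cluster weights were chosen after the data were seen. The macrophage-like Apoe ratio ranged from -0.35 to -0.13, that of SMC-like cells from -0.89 to -0.54, and the excess over B-like cells from 1.38 to 1.70 in WT and from 0.69 to 1.31 in EC-iCD45KO. TMM scaling shifted all genes by 0.36 in the last, by 0.12 in neutrophil-like and by -0.11 in T/NK-like cells. With no minimum and 0.5 CPM added, genes 2-fold higher and lower in macrophage-like cells numbered 163 and 562 of 21843 in place of 73 and 248, in EC-like 443 and 890 in place of 157 and 388, in SMC-like 513 and 785 in place of 190 and 322, and in fibroblast-like 524 and 1149 in place of 193 and 546. In the macrophage-like clusters of no subtype, foamy, resident-like and monocyte-derived cells they were 1109 and 1421 in place of 238 and 484, 405 and 568 in place of 117 and 164, 554 and 800 in place of 120 and 227, and 650 and 1256 in place of 150 and 438; the cause was not tested. Small counts limit the Apoe values of Schwann-like, neutrophil-like, T/NK-like, B-like, dendritic-like, chondrocyte-like, plasma-like and erythroid-like cells, each resting on fewer than 10 UMIs in at least 1 library, in B-like cells with 336 cells in EC-iCD45KO rather than shallow ones.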
